A study of Mus musculus with 15 samples.

Results

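The genes described here are the 46 protein-coding genes of integrins, laminins and the focal adhesion core in mouse hippocampus, among 55401 counted genes. They were chosen by a rule on symbols that used no measured value, though earlier results of these data were known. The rule took symbols that begin with Itga or Itgb (without Itgax, Itgam and the genes of integrin-binding proteins), symbols that begin with Lama, Lamb or Lamc, and Ptk2, Ptk2b, Tln1, Tln2, Vcl, Pxn, Src, Bcar1 and Ilk. It found 16 integrin alpha genes and 10 integrin beta genes, the beta-like gene Itgbl1 among them. It also found 5 laminin alpha, 3 laminin beta and 3 laminin gamma genes, 6 adaptor genes and 3 kinase genes. Of the 46 genes, 43 passed the filter on low counts and were tested, and Itgb6, Itgb2l and Ilk did not.

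Hippocampal RNA came from 15 female mice aged 18 to 20 months, in 4 groups: 4 WT vehicle mice, 4 WT DHA mice, 4 Tg2576 vehicle mice and 3 Tg2576 DHA mice. Tg2576 mice (genotype label Tg2576 +/+) overexpress human APP with the Swedish mutation from the prion promoter, and WT mice (Tg2576 -/-) were their transgene-negative littermates. DHA, an omega-3 fatty acid, was given into the stomach daily at 450 mg/kg for 5 weeks in sesame oil, and vehicle mice received the oil alone. The study asked how DHA acts on the hippocampus of old mice of both genotypes, and all mice were aged females.

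Integrins are receptors of an alpha and a beta chain that span the cell membrane and bind the extracellular matrix or other cells. Laminins are matrix proteins of an alpha, a beta and a gamma chain that build basement membranes, which in brain line the blood vessels and the surface under the meninges. When integrins bind, talin, vinculin, paxillin and Bcar1 (p130Cas) gather at their cytoplasmic tails, link them to actin and switch on the kinases Ptk2 (focal adhesion kinase) and Src. In neurons these proteins take part in spine structure and synaptic plasticity, and in microglia, vessels and meninges they take part in attachment and migration.

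The 15 libraries held 17372864 to 46596489 counted reads, with a median of 25645977. App, which takes up reads of the transgene where human and mouse sequence agree, lay at 1570 to 1790 CPM (counts scaled to a common library size) in the 8 WT mice and at 2080 to 2790 CPM in the 7 Tg2576 mice, so every library matched its genotype label. Summed CPM of 6 neuron markers was 8240 to 11300, and none of the markers of neurons, glia, vessels or meninges was at 0 in every mouse. Choroid plexus markers varied most between mice, from a summed 61 to 5820 CPM in WT DHA mice. In bulk RNA, fewer cells of a type and less RNA per cell cannot be told apart.

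Levels between genes are given per length, as CPM per kilobase (kb) of counted exon averaged over the 15 mice. Ptk2b, the calcium-responsive relative of focal adhesion kinase, was by far the highest at 132 CPM per kb. Src followed at 40.8 CPM per kb, and Ptk2 itself lay at 9.81 CPM per kb. Among adaptors Bcar1 was highest at 15.8 CPM per kb, with Pxn at 10.8, Tln1 at 8.53, Tln2 at 8.25 and Vcl at 2.92 CPM per kb.

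The beta chains Itgb5, a partner of Itgav in vitronectin receptors, and Itgb1, the common partner of most alpha chains, led the integrins at 18.4 and 10.9 CPM per kb. The highest alpha chain was the laminin receptor chain Itga7 at 6.29 CPM per kb, ahead of Itga3 at 4.75 and Itgav at 3.52 CPM per kb. The leukocyte chains Itgal, Itgad and Itgae lay between 0.0815 and 0.183 CPM per kb. Of the laminins, Lamb2 lay at 6.36, Lamb1 at 4.65 and Lamc1 at 4.31 CPM per kb, and the highest laminin alpha chain was Lama5 at 2.12 CPM per kb. Lamb3, a chain of the epithelial laminin of skin, lay at 0.372 CPM per kb.

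**Figure D1:**
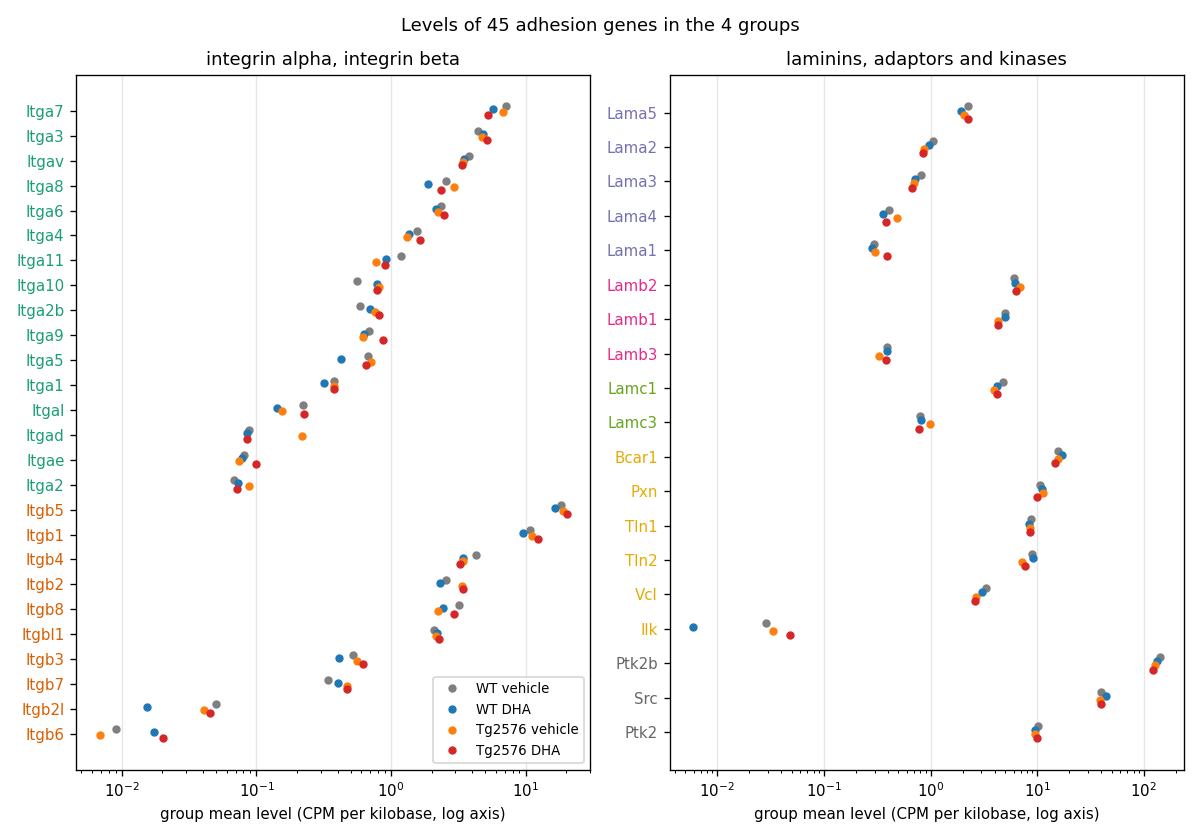
Group means of 45 of the 46 genes in CPM per kilobase of counted exon, on a log axis, for the 4 groups (colours of points) and the roles (colours of names). Ptk2b lies highest at 132 CPM per kb over all mice, and the 4 group means of a gene lie close together beside the distance between genes.

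Ilk, integrin-linked kinase, is used by nearly every cell type, but it had only 0 to 7 reads per mouse. Of its 2744 exon bases, 89.7% are shared with genes on the opposite strand, namely Taf10 (2106 bases) and Rrp8 (355 bases). Counting took no account of strand and by its default left out reads that fall in 2 genes, so the level of Ilk cannot be read from these counts. Shared exon bases were also above 10% for Itga10 (33.5%), Vcl (25.5%) and Itgad (19.7%), while 33 of the 46 genes shared none. Itgb6 had 0 to 6 reads and Itgb2l 0 to 28 reads per mouse.

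Tests were made with edgeR over all 19536 genes that passed the filter, and a gene was called at an unadjusted p under 0.01, the cut-off of the study. Few of the 43 genes were called, and none passed an adjusted p (Benjamini-Hochberg) under 0.05 in any of the 6 comparisons. Itgb1 and Itgb2 rose in Tg2576 against WT mice under DHA. Itga5 fell with DHA in WT mice. Averaged over both treatments, Itgb2 rose and Lamb1 fell in Tg2576 mice.

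Between Tg2576 and WT mice under vehicle, 0 of 43 genes were called, where 3.09% of all genes tested were. DESeq2 and limma-voom also called 0 there, and 7 of the 43 genes (16.3%) had an unadjusted p under 0.05 against 10.7% of all genes. Under DHA, 2 of 43 genes (4.65%) were called against 1.75% of all genes, and 6 genes (14%) had p under 0.05 against 6.86%. Averaged over both treatments, 2 of 43 genes (4.65%) were called against 3.85% of all genes, and 7 genes (16.3%) had p under 0.05 against 11.6%. These shares lie near those of all genes for p under 0.01 in the averaged comparison, and a count of 2 is small in both.

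DHA against vehicle in WT mice gave 1 called gene of 43 (2.33%), where 1.38% of all genes were called, and 4 genes (9.3%) with p under 0.05, where 5.92% of all genes had it. In Tg2576 mice DHA gave 0 called genes, where 0.353% of all genes were called, and 3 genes (6.98%) with p under 0.05 against 3.16%. The interaction of genotype and DHA gave 0 called genes against 0.829% of all genes, and 1 gene (2.33%) with p under 0.05 against 5.12%. DESeq2 and limma-voom likewise called 0 in both of these comparisons. The share of all genes with an adjusted p under 0.05 was 0.0154% for genotype under vehicle, 0.00512% under DHA, 0.205% for the average over treatments, and 0.0% for both DHA comparisons and the interaction.

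With 0 genes passing the adjusted threshold in edgeR, the smallest adjusted p among the 43 genes was 0.154, for Itgb2 in the average over treatments. DESeq2 gave Itgb2 an adjusted p of 0.0271 in that comparison. It was the only one of the 43 genes to pass the adjusted threshold in any tool or setting tried. The comparisons share mice. Genotype under DHA and DHA in WT mice both use the same 4 WT DHA mice. The interaction and the average over treatments use all 15 mice, those 4 included.

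**Figure D2:**
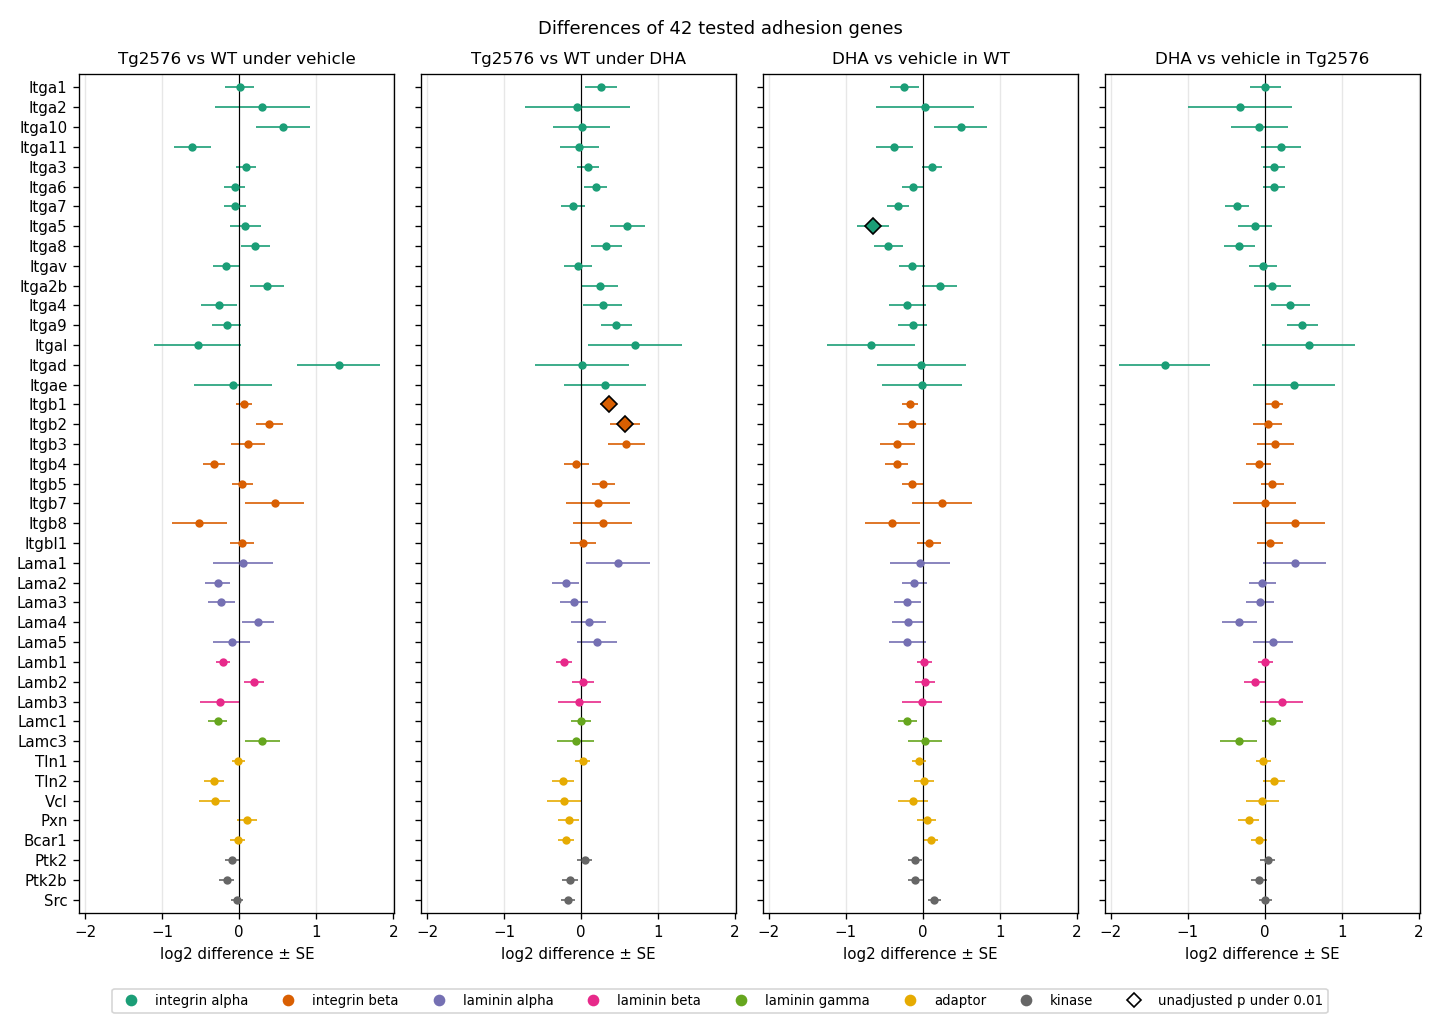
Log2 differences (points) with standard errors (bars) of 42 of the 43 tested genes in 4 comparisons, by role, on a log2 scale. Diamonds mark an unadjusted edgeR p under 0.01: Itgb1 and Itgb2 in Tg2576 against WT under DHA, and Itga5 in DHA against vehicle in WT.

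The sequences before the start sites of the called genes Itga5, Itgb1 and Lamb1 are shown so that the genes whose levels differed can be located. Itgb2, the fourth called gene, has no entry in the promoter table used, which matched 28 of the 46 genes. The stretches are chr15:103366792-103367041 (minus strand), chr8:128685404-128685653 (plus strand) and chr12:31265043-31265233 (plus strand) of RefSeq on GRCm38.p6, and lie before the annotated gene. Capitals mark matches on either strand to 4 motifs: the GC box GGGCGG, the CCAAT box CCAAT, the TATA box TATAAA and the AP-1 site TGANTCA.
Itga5: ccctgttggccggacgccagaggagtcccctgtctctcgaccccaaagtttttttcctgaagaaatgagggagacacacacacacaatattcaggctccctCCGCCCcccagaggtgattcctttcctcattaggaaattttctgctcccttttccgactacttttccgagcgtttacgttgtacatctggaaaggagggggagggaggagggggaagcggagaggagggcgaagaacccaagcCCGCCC
Itgb1: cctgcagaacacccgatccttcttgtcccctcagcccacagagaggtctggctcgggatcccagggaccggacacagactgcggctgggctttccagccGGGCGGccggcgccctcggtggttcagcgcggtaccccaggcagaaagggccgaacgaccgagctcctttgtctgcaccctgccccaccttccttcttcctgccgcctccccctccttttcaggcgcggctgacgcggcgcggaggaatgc
Lamb1: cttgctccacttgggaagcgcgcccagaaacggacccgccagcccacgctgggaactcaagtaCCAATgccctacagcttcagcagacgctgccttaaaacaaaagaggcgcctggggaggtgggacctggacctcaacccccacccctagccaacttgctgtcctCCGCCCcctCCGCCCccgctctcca
Itga5 held 2 GC boxes and Itgb1 held 1 in 250 bases, and 32.7% of the 32851 promoters in the table hold at least 1 in that window. Lamb1 held 2 GC boxes and 1 CCAAT box in 191 bases, where 23.1% and 26.9% of promoters hold one. None of the 3 stretches held the TATA box or the AP-1 letters, which 12.4% and 6.75% of promoters hold in 250 bases. GC content was 55.6% for Itga5, 68.0% for Itgb1 and 63.9% for Lamb1, beside a median of 52.4% over all promoters. These matches are letters in a window and were not tested as binding sites.

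Lamb1, the beta chain of the widespread early laminins, was lower in Tg2576 mice. It measured 50.8, 48.0, 52.9 and 44.4 CPM in WT vehicle mice and 52.7, 43, 49.0 and 54.1 CPM in WT DHA mice. Tg2576 mice had 44.7, 42.5, 44.0 and 38.2 CPM under vehicle and 39.0, 41.8 and 47.0 CPM under DHA. The genotypes overlapped within each treatment, and 4 of the 7 Tg2576 mice lay below every WT mouse. The log2 difference averaged over treatments was -0.22 (SE 0.0695, unadjusted p = 0.00608, adjusted p = 0.225), and an exact permutation of genotype labels within treatments gave p = 0.00776.

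The difference of Lamb1 was of like size under vehicle (-0.21, SE 0.0943) and under DHA (-0.22, SE 0.102), and the interaction was -0.01 (SE 0.139). The call was lost without any one of 8 mice (log2 difference -0.21 to -0.18): the WT vehicle mice 1, 2 and 3, the WT DHA mice 1 and 4, the Tg2576 vehicle mouse 4 and the Tg2576 DHA mice 1 and 2. It was also lost with library sizes taken without TMM scaling (-0.18).

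Lamc1, the gamma chain shared by most laminins, was at 43.3, 40.2, 38.3 and 38.1 CPM in WT vehicle mice and 33.3, 34.5, 33.5 and 30.0 CPM in Tg2576 vehicle mice. These groups did not overlap. Its log2 difference was -0.28 (SE 0.119, unadjusted edgeR p = 0.0278), which missed the cut-off, and an exact permutation test gave p = 0.0286, the smallest that 4 against 4 mice allow. Under DHA the levels were 32.8, 39.2, 32.5 and 34.7 CPM in WT and 25.7, 38.3 and 40.6 CPM in Tg2576 mice, with a difference of 0.00 (SE 0.128). The 3 Tg2576 DHA mice were widely spread, with mouse 1 lowest of all 15.

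Lama5, the alpha chain of mature vessel basement membrane, measured 28.7, 22.7, 33.3 and 16.8 CPM in WT vehicle mice and 17.3, 17.8, 35.6 and 18 CPM in WT DHA mice. Tg2576 mice had 27.8, 26.3, 20.5 and 20.4 CPM under vehicle and 21.9, 31.6 and 23.3 CPM under DHA. WT DHA mouse 3 stood apart from its group. Every pair of groups overlapped, and the largest log2 difference of Lama5 in the 6 comparisons was 0.31, for the interaction (SE 0.357, adjusted p = 0.883).

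Lamb2, the beta chain of vessel and synaptic basement membranes, lay at 37.5, 38.2, 41.7 and 29.8 CPM in WT vehicle and 36.7, 38.4, 41.6 and 33.9 CPM in WT DHA mice. Tg2576 levels were 39.7, 47.8, 45.5 and 34.3 CPM under vehicle and 31.8, 46.4 and 36.6 CPM under DHA. All groups overlapped, and the log2 difference averaged over treatments was 0.11 (SE 0.0973, edgeR adjusted p = 0.75). Of the 11 laminin genes, 5 lay above 0 and 6 below in the vehicle genotype comparison, with log2 differences of -0.28 to 0.30. Under DHA the split was 6 above and 5 below.

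Itga5, the alpha chain of the fibronectin receptor, was lower in WT mice given DHA. Levels were 3.21, 3.34, 4.09 and 2.62 CPM in WT vehicle mice and 1.76, 2.53, 2.59 and 1.54 CPM in WT DHA mice. The groups did not overlap, though the lowest vehicle mouse lay close to the highest DHA mouse. The log2 difference was -0.65 (SE 0.21, 0.64 times the vehicle level, unadjusted p = 0.00648, adjusted p = 0.647), and an exact permutation test gave p = 0.0286, the smallest possible with 4 against 4 mice.

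In Tg2576 mice Itga5 was at 3.29, 3.62, 3.27 and 3.78 CPM under vehicle and 3.06, 2.96 and 3.56 CPM under DHA. Both Tg2576 groups lay above all 4 WT DHA mice. The log2 difference between genotypes was 0.60 under DHA (SE 0.225, unadjusted edgeR p = 0.0166, exact permutation p = 0.0857) and 0.08 under vehicle (SE 0.205, exact permutation p = 0.543). The interaction was 0.52 (SE 0.305, adjusted p = 0.845), so the DHA difference was not shown to differ between genotypes. The call in WT mice was lost without the WT vehicle mice 1, 2 or 3 or the WT DHA mice 1 or 4 (log2 difference -0.66 to -0.53), without the filter on low counts (-0.65), and in a fit of only the 2 groups (-0.65).

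Itga9, the chain of the tenascin and osteopontin receptor, had the lowest p among the 43 genes for DHA in Tg2576 mice and for the interaction, and was not called in either. It was at 4.20, 6.33, 3.70 and 4.76 CPM in Tg2576 vehicle mice and 8.10, 6.21 and 5.73 CPM in Tg2576 DHA mice, which overlapped. WT levels were 6.29, 5.51, 4.66 and 4.75 CPM under vehicle and 4.84, 4.55, 5.69 and 4.32 CPM under DHA. All 3 Tg2576 DHA mice lay above all 4 WT DHA mice, the nearest at 5.73 against 5.69 CPM.

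For Itga9, DHA in Tg2576 mice gave a log2 difference of 0.49 (SE 0.202, unadjusted edgeR p = 0.0275, exact permutation p = 0.114). The interaction was 0.62 (SE 0.277, adjusted p = 0.845). Without Tg2576 vehicle mouse 2 both passed the cut-off, at 0.66 and 0.79. The related chain Itga4 had a DHA difference of the same sign in each genotype as Itga9, and the pair spanned 0.33 to 0.49 in Tg2576 and -0.20 to -0.13 in WT mice.

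Itga7, the laminin receptor chain and most abundant alpha chain, was at 49.5, 67.4, 58.5 and 54.5 CPM in WT vehicle mice and 53.0, 36.3, 44.9 and 49.6 CPM in WT DHA mice. Tg2576 mice had 60.3, 40.0, 57.3 and 63.0 CPM under vehicle and 48.3, 38.8 and 41.4 CPM under DHA. DHA means were below vehicle means in both genotypes, with overlap in each. The log2 differences were -0.32 in WT (SE 0.144, exact permutation p = 0.0857) and -0.36 in Tg2576 mice (SE 0.156, exact permutation p = 0.143), and neither passed the cut-off. The interaction was -0.04 (SE 0.212).

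Itga8, a chain of the nephronectin receptor, was at 18, 19.6, 15.6 and 22.1 CPM in WT vehicle mice and 14.3, 9.97, 12.5 and 18.5 CPM in WT DHA mice. Tg2576 mice had 27.0, 16.2, 19.9 and 24.1 CPM under vehicle and 14.5, 20.2 and 17.2 CPM under DHA. The mean under DHA lay below that under vehicle in both genotypes. The log2 difference in WT mice was -0.45 (SE 0.186, unadjusted edgeR p = 0.0274, exact permutation p = 0.0857) and in Tg2576 mice -0.33 (SE 0.20, exact permutation p = 0.257). Without WT DHA mouse 4 the difference in WT mice was -0.62 and passed the cut-off.

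Itga11, a collagen receptor chain of fibroblasts, was at 6.20, 7.50, 5.10 and 5.45 CPM in WT vehicle mice and 2.61, 5.53, 2.88 and 4.72 CPM in Tg2576 vehicle mice. Only Tg2576 mouse 2 reached the WT range. The log2 difference was -0.61 (SE 0.239, unadjusted edgeR p = 0.0202, exact permutation p = 0.0857), the lowest edgeR p among the 43 genes in that comparison. DHA mice overlapped, at 5.59, 3.77, 3.62 and 5.71 CPM in WT and 4.64, 4.11 and 5.03 CPM in Tg2576 mice, with a difference of -0.02 (SE 0.258).

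Itgad, a leukocyte chain, was scarce, and 1 mouse decided its values. Tg2576 vehicle mouse 1 was at 2.27 CPM, the other 3 of that group at 0.388, 0.645 and 0.650 CPM. WT levels were 0.345, 0.580, 0.372 and 0.301 CPM under vehicle and 0.264, 0.552, 0.517 and 0.192 CPM under DHA, and Tg2576 DHA mice had 0.252, 0.591 and 0.310 CPM. The log2 difference of DHA in Tg2576 mice was -1.30 (SE 0.592, unadjusted edgeR p = 0.0426, exact permutation p = 0.143) with all mice and -0.51 without Tg2576 vehicle mouse 1.

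Itgb1 was higher in Tg2576 than in WT mice given DHA. It was at 37.9, 39.5, 43.8 and 35.8 CPM in WT DHA mice and 48.2, 51.0 and 51.6 CPM in Tg2576 DHA mice, and these groups did not overlap. Vehicle mice had 49.3, 46.8, 40.5 and 39.7 CPM in WT and 43.6, 53.0, 46.8 and 39.8 CPM in Tg2576, which overlapped over most of their range. The log2 difference under vehicle was 0.06 (SE 0.101, adjusted p = 0.88). Under DHA it was 0.36 (SE 0.109, 1.28-fold, unadjusted p = 0.00437, adjusted p = 0.546), and an exact permutation test gave p = 0.0571.

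The interaction of Itgb1 was 0.30 (SE 0.149, adjusted p = 0.845), so the genotype difference was not shown to differ between treatments at the cut-off. DHA against vehicle was -0.17 in WT (SE 0.101, exact permutation p = 0.143) and 0.13 in Tg2576 mice (SE 0.109, exact permutation p = 0.286). The call under DHA was lost without the WT DHA mice 1 or 4 or the Tg2576 DHA mice 2 or 3 (log2 difference 0.32 to 0.35). It held in all 6 alternative settings with all mice, DESeq2 and limma-voom included.

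Itgb2, the beta chain of the leukocyte integrins and in brain a gene of microglia, kept its call in the average over treatments whichever mouse was left out. WT mice had 7.11, 8.90, 8.31 and 6.98 CPM under vehicle and 5.28, 7.01, 8.17 and 7.87 CPM under DHA. Tg2576 mice had 8.06, 10.3, 10.9 and 11.4 CPM under vehicle and 12.6, 7.62 and 11.3 CPM under DHA. In 5 of the 7 Tg2576 mice Itgb2 lay above every WT mouse. Tg2576 vehicle mouse 1 and Tg2576 DHA mouse 2 lay within the WT range.

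Averaged over treatments, the log2 difference of Itgb2 was 0.48 (SE 0.131, 1.39-fold, unadjusted p = 0.00192, adjusted p = 0.154), and an exact permutation within treatments gave p = 0.00653. Over all settings, each mouse left out in turn included, it lay between 0.41 and 0.58 and was called. The adjusted p ranged from 0.0271 to 0.283 over the settings. Under DHA alone the difference was 0.57 (SE 0.191, unadjusted edgeR p = 0.00844, exact permutation p = 0.114) and under vehicle 0.39 (SE 0.178, exact permutation p = 0.0857), with an interaction of 0.18 (SE 0.262).

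The call of Itgb2 under DHA was lost without any one of 8 mice (log2 difference 0.42 to 0.57): Tg2576 DHA mice 1 or 3, Tg2576 vehicle mice 2 or 3, WT DHA mice 1 or 2, or WT vehicle mice 1 or 3. It was also lost in limma-voom (0.54) and in a fit of only the 2 groups (0.58).

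Averaged over treatments, microglial markers were higher in Tg2576 mice, as Itgb2 was. All 7 markers of microglia lay above 0 in the average over treatments, with a median log2 difference of 0.29, and 4 were called, all higher. Their summed level was 320 to 380 CPM in WT vehicle, 275 to 341 in WT DHA, 321 to 461 in Tg2576 vehicle and 350 to 499 CPM in Tg2576 DHA mice. Of 7 markers of plaque-associated microglia, a list that holds the integrin gene Itgax, 6 were called higher, with a median of 1.08. Markers of neutrophils, platelets and T cells summed to 1.49 to 8.39 CPM over all mice. Of the 5 tested, 3 lay above 0 in the average over treatments (median 0.71) and 4 under DHA (median 1.06), with 1 called higher in each. None of the microglial markers was at 0 in all mice, and the part of these cells in the Itgb2 difference was not tested.

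Itgb4, the beta chain of hemidesmosomes, was at 34.5, 29.1, 29.0 and 28.2 CPM in WT vehicle mice, above the 17.7, 23.3, 27.8 and 26.5 CPM of WT DHA mice and the 18.3, 25.9, 26.9 and 25 CPM of Tg2576 vehicle mice. The WT vehicle group overlapped neither, and exact permutation tests gave p = 0.0286 for each. Tg2576 DHA mice had 25.5, 19.3 and 23.7 CPM. The log2 differences were -0.34 for DHA in WT mice (SE 0.146, adjusted p = 0.817) and -0.33 for genotype under vehicle (SE 0.146, adjusted p = 0.425). Both miss the cut-off and both rest on the same 4 WT vehicle mice. Without WT DHA mouse 1 the DHA difference was -0.22.

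Itgb5 lay at 61.6, 61.7, 67.8 and 69.3 CPM in WT vehicle and 52.3, 55.7, 65.2 and 62.7 CPM in WT DHA mice. Tg2576 mice were more spread, at 53.2, 77.2, 78.1 and 59.8 CPM under vehicle and 81.2, 54.8 and 80.0 CPM under DHA. The groups overlapped in every comparison. The largest log2 difference was 0.29, between genotypes under DHA (SE 0.146, exact permutation p = 0.229).

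**Figure D3:**
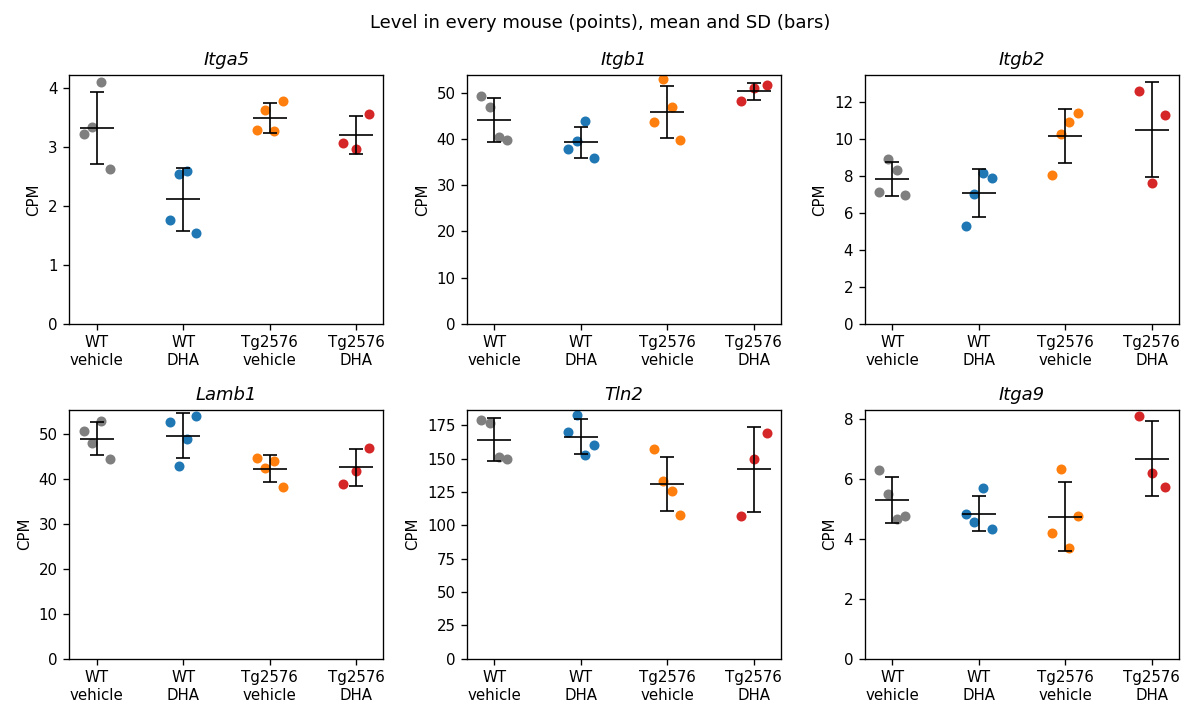
CPM of 6 genes in every mouse (points), with group means and SD (bars), on axes that start at 0. Itga5 is lowest in the 4 WT DHA mice, Itgb1 does not overlap between the genotypes under DHA, and Itgb2 is higher and Lamb1 lower in most Tg2576 mice.

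Vessel and meningeal markers give the setting for Itgb1, Itga5 and Lamb1, which those cells carry. Endothelial markers (7 genes) summed to 145 to 171 CPM in WT DHA mice and 137 to 170 CPM in Tg2576 DHA mice. Their median log2 difference between genotypes under DHA was -0.05, with 0 of 7 called by edgeR (lowest p 0.113). Mural cell markers summed to 88.9 to 101 CPM in WT DHA and 89.9 to 125 CPM in Tg2576 DHA mice, with a median of 0.04 and 0 of 7 called by edgeR (lowest p 0.147). Markers of meningeal fibroblasts summed to 34.3 to 74.1 CPM in WT DHA and 39.0 to 106 CPM in Tg2576 DHA mice, with all 7 above 0, a median of 0.60 and 0 called by edgeR (lowest p 0.278). For DHA in WT mice, the medians were -0.12, -0.16 and 0.06 for the 3 lists, with 0 called by edgeR (lowest p 0.122, 0.167 and 0.209). In the average over treatments, where Lamb1 was called, endothelial markers had a median of 0.08 with 1 of 7 called, which was higher. All 7 markers of meningeal fibroblasts lay above 0 there, with a median of 0.60 and 0 called by edgeR (lowest p 0.0262).

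Choroid plexus markers also had higher means in Tg2576 than in WT mice under DHA, where Itgb1 and Itgb2 were called. They summed to 3100 to 5150 CPM in the 3 Tg2576 DHA mice and to 61 to 5820 CPM in the 4 WT DHA mice. All 6 lay above 0, with a median log2 difference of 1.25 and 0 called by edgeR (lowest p 0.176). Their median was 1.05 for DHA in Tg2576 mice and 1.45 for the interaction. In that genotype comparison under DHA, all 7 markers of microglia lay above 0 as well. Their median log2 difference was 0.49, and 4 were called, all higher (lowest edgeR p 9.18e-06). The part of all these cells in the differences was not tested.

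Tln2, a talin that switches integrins on from inside the cell, had lower means in Tg2576 mice and missed the cut-off narrowly. WT mice had 179, 177, 151 and 150 CPM under vehicle and 170, 183, 153 and 160 CPM under DHA. Tg2576 mice had 157, 133, 126 and 108 CPM under vehicle and 107, 150 and 169 CPM under DHA. The groups overlapped within each treatment. The log2 difference averaged over treatments was -0.28 (SE 0.0964, unadjusted p = 0.0103, adjusted p = 0.261), with an exact permutation p of 0.0127. Under vehicle it was -0.33 (SE 0.131, adjusted p = 0.382).

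Neuron markers also had lower means in Tg2576 mice. Of 6 neuron markers 5 lay below 0 in the average over treatments, with a median of -0.16 and 2 called, both lower. Their summed level was 9390 to 11000 CPM in WT vehicle and 8980 to 10000 CPM in Tg2576 vehicle mice. All 9 markers of hippocampal granule and pyramidal neurons lay below 0 in the average over treatments. Their median was -0.23, and 3 were called, all lower. The part of neurons in the Tln2 and Lamb1 differences was not tested.

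Bcar1, the scaffold that focal adhesion kinase and Src phosphorylate, was at 66.5, 70.5, 83.7 and 65.9 CPM in WT vehicle and 67.4, 72.2, 78.6 and 88.6 CPM in WT DHA mice. Tg2576 mice had 71.9, 67.9, 74.8 and 67.7 CPM under vehicle and 68.5, 62.8 and 68.9 CPM under DHA. The groups overlapped in every comparison, and the log2 difference between genotypes under DHA was -0.20 (SE 0.104, exact permutation p = 0.171).

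Ptk2, focal adhesion kinase, differed little between groups. It was at 123, 138, 103 and 120 CPM in WT vehicle mice and 111, 115, 107 and 117 CPM in WT DHA mice. Tg2576 mice had 100, 115, 112 and 126 CPM under vehicle and 123, 118 and 109 CPM under DHA. All groups overlapped. Its log2 differences were -0.09 for genotype under vehicle (SE 0.0915), 0.05 under DHA (SE 0.0987), -0.10 for DHA in WT (SE 0.0915) and 0.04 for DHA in Tg2576 mice (SE 0.0987). Exact permutation tests gave p = 0.429, 0.40, 0.343 and 0.657 in that order.

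Ptk2b was at 977, 1190, 1030 and 1050 CPM in WT vehicle and 1070, 879, 917 and 1080 CPM in WT DHA mice. Tg2576 mice had 1050, 816, 1010 and 914 CPM under vehicle and 845, 930 and 911 CPM under DHA. The averaged genotype difference was -0.15 (SE 0.0709, exact permutation p = 0.0453), and the groups overlapped within each treatment. The 3 kinase genes lay below 0 in the averaged genotype comparison, from -0.15 to -0.02, and so did 4 of the 5 adaptors tested, from -0.28 to -0.03.

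The genes spread about 0 with small differences. Under vehicle 20 of 43 lay above 0 between genotypes (median -0.02), and under DHA 27 did (median 0.03). By the fit with TMM, DHA lay below vehicle for 29 of the 43 genes in WT mice (median -0.11), where 10291 of the 19536 genes tested did. In Tg2576 mice DHA lay below vehicle for 19 of 43 (median 0.01), where 9946 of the 19536 did. Of the 16 alpha chains 12 lay below 0 for DHA in WT mice, and so did 6 of the 8 integrin beta genes and all 5 laminin alpha chains. Between genotypes under DHA, 12 of 16 alpha chains and 7 of 8 integrin beta genes lay above 0, beside 49.3% of all genes tested. The 8 beta genes hold the beta-like Itgbl1. Without it, 6 of 7 lay below 0 in the first of these comparisons and 6 of 7 above 0 in the second. These 2 comparisons share the WT DHA mice, so their opposite directions are not independent. Without TMM scaling the vehicle split between genotypes turned to 23 above and 20 below 0 (median 0.01), and the DHA split in WT mice stayed at 14 above and 29 below.

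The 2 genotype comparisons share no mice. In them 30 of the 43 genes (69.8%) had the same sign, 17 above 0 in both and 13 below, beside 53.1% of all genes tested. The 2 DHA comparisons likewise share no mice, and there 19 of the 43 genes (44.2%) had the same sign, as did 44.2% of all genes. These shares carry no test.

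**Figure D4:**
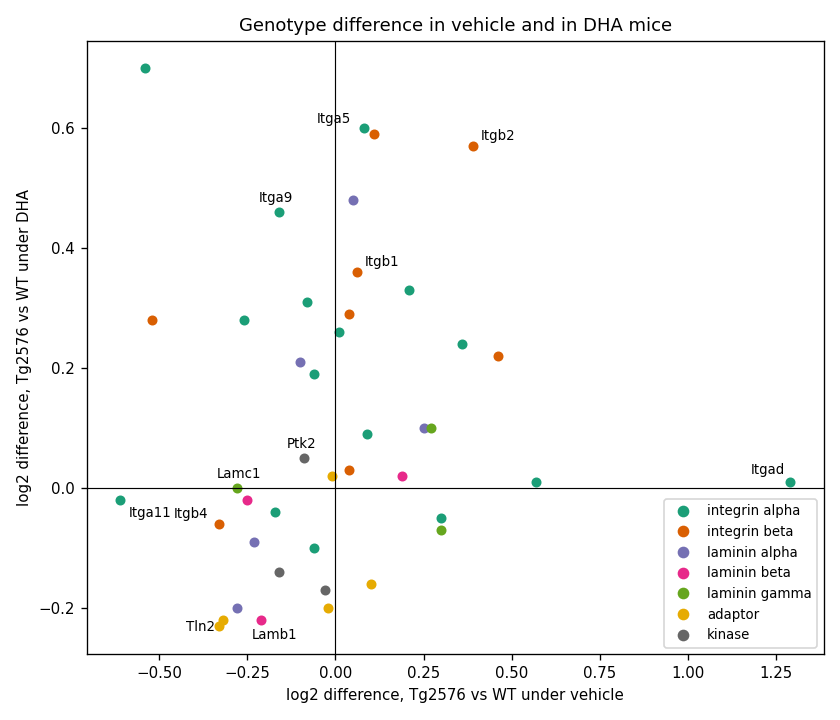
Log2 difference between genotypes under vehicle (x axis) and under DHA (y axis) for the 43 tested genes, by role. The 2 axes use different mice, and 30 of the 43 genes lie in the quadrants where both differences have the same sign, among them Itgb2 (both above 0), Lamb1 and Tln2 (both below 0).

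Within groups, the spread of the 43 genes was like that of other genes, with a median SD of 0.26 (0.10 to 1.01) on the log2 scale beside 0.25 for all genes. Some mice were set apart across many of them. WT vehicle mouse 4 was lowest of its group for 23 of the 43 genes (53.5%, beside 23.1% of all genes), and WT vehicle mouse 1 was highest for 19 (44.2%, beside 22%). Tg2576 vehicle mouse 4 was lowest for 20 (46.5%, beside 28.5%) and Tg2576 DHA mouse 1 for 21 (48.8%, beside 40.5%). For Tg2576 DHA mouse 1 the share over all genes was itself high, so that trait was not particular to these genes. A single mouse therefore entered the extremes of many of these genes at once.

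A further 88 tested genes of the adhesion pathway were listed in 4 classes. Of these, 4 (beside 3.09% of all genes tested) were called for genotype under vehicle, 2 (beside 1.75%) under DHA, 7 (beside 3.85%) in the average over treatments and 1 (beside 1.38%) for DHA in WT mice. By edgeR 0 were called for DHA in Tg2576 mice (lowest p 0.0267, beside 0.353% of all genes) and for the interaction (lowest p 0.0127, beside 0.829%). Of the 22 matrix ligands, 3 rose and 1 fell in Tg2576 mice under vehicle. Col6a1 and Col6a2, chains of collagen VI, rose by log2 differences of 1.03 (SE 0.229, adjusted p = 0.162) and 1.10 (SE 0.287, adjusted p = 0.201). For Col6a1 the WT vehicle mice averaged 47.4 ± 6.17 CPM and the Tg2576 vehicle mice 96.5 ± 15.9 CPM (SD, n = 4 each). Between genotypes under vehicle, 6 of 7 markers of meningeal fibroblasts, a list that shares Col1a1 and Col3a1 with the matrix ligands, lay above 0. The 7 markers had a median of 0.57 and a highest difference of 1.22, and 0 were called by edgeR (lowest p 0.0315). They summed to 26.9 to 55.5 CPM in WT vehicle and 22.8 to 104 CPM in Tg2576 vehicle mice, and their part in the collagen VI differences was not tested. None of the genes named from these classes passed an adjusted edgeR p under 0.05 (0.106 to 0.542).

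Npnt, nephronectin and the ligand of Itga8, fell in Tg2576 mice under vehicle by 0.40 on the log2 scale (SE 0.125) and in the average over treatments by 0.30 (SE 0.0925). Fbln5, fibulin 5, rose in the average by 0.93 (SE 0.225, adjusted p = 0.106). WT mice averaged 4.47 ± 0.827 CPM under vehicle and 3.68 ± 0.369 CPM under DHA (SD). Tg2576 mice averaged 8.78 ± 4.93 CPM under vehicle, a wide spread, and 6.82 ± 0.866 CPM under DHA. Of 25 adaptors and actin linkers, Fermt3 (0.34, SE 0.0987, adjusted p = 0.172) and Lpxn (0.54, SE 0.165, adjusted p = 0.192) rose in the average over treatments. Fermt3, the kindlin of blood cells, and Lpxn, leupaxin, are genes of leukocytes and microglia. So is Apbb1ip, listed with the regulators, which recruits talin and rose in the average by 0.50 (SE 0.158).

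Lims1, the partner of Ilk, rose in Tg2576 against WT mice under DHA (0.32, SE 0.0931), from 19.7 ± 0.778 (SD, n = 4) to 24.6 ± 1.98 CPM (SD, n = 3). Git1, a paxillin-binding scaffold, fell there by 0.28 (SE 0.0831). Fermt1, the epithelial kindlin, rose with DHA in WT mice (1.22, SE 0.319). Of 33 kinases, scaffolds and regulators, 1 was called under DHA and 1 in the average. The 8 laminin receptors beside integrins, such as dystroglycan, gave 0 calls in every comparison, and their lowest unadjusted edgeR p was 0.0123, for genotype under vehicle.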

How the data were processed

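Hippocampal RNA of 15 mice was sequenced, and 1 table per mouse held the raw read counts of 55401 genes, deposited as the authors counted them over the exons of GENCODE M25 (GRCm38) using featureCounts 1.6.0 after STAR alignment (2.6.1c in the submitters' processing notes). No strand option was used, and by that tool's defaults reads in several places or several genes were left out. The labels and the study's methods name different library kits. Symbols came from GENCODE M21 (55141 genes matched).

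Counts were tested with edgeR 4.0.16 in R 4.3.3 (filterByExpr, minimum count 10, 19536 genes kept; TMM factors 0.961 to 1.03; robust quasi-likelihood F test, 1 coefficient per group, two-sided). The biological coefficient of variation was 20.1%. SE is the log2 difference divided by the square root of F. Exact permutation tests used log2 CPM (prior count 2), two-sided. DESeq2 1.42.0 and limma-voom (limma 3.58.1), other scaling and filters, fits of 2 groups, a replicate block and leaving out each mouse were alternatives. Scripts were tested on simulated data. The model assigns each mouse 1 sample, so edgeR p-values set a difference against the spread between mice, estimated over all 4 groups.

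The members and lists were chosen with earlier results of these data known. Named with every value were genes with an unadjusted p under 0.01 in any comparison, the 3 of lowest p where fewer were called, the most abundant gene of each role, and Itgb1 and Ptk2. Promoters came from RefSeq. Replicate numbers were not treated as pairs. Same-numbered mice of different groups correlated at -0.244 to 0.213 (21 pairs, median 0.0117), and differently numbered mice at -0.235 to 0.23 (63 pairs, median 0.00305). Such correlations alone cannot exclude a pairing. 1 gene of the set is counted in the totals but not reported here by name.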

Additional observations from a re-analysis of the deposited data

Results flagged for a closer look

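A single mouse stood far from its group, by the gap to its nearest neighbour relative to the range of the group, for 2 of 54 combinations of a named gene and a group of 4 mice, where chance gives about 2.7 (1 in 20). Itgb4 was at 34.5 CPM in WT vehicle mouse 1 and at 28.2 to 29.1 CPM in the other 3 mice. Lama5 was at 35.6 CPM in WT DHA mouse 3 and at 17.3 to 18 CPM in the other 3 mice. The cause was not tested.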

How the results depend on the processing

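Counts of called genes were small, so 1 gene more or less moves them by over 1.5 times. For genotype under vehicle the count was 0, rose to 1 (Tln2) without the filter on low counts, and was 0 to 2 when each mouse was left out. For genotype under DHA it was 2, fell to 1 (Itgb1) in limma-voom and in a fit of only the 2 groups, and was 0 to 3 without single mice. For DHA in WT mice it was 1, fell to 0 without the filter and in a fit of only the 2 groups, and was 0 to 1 without single mice, the 1 gene being Itga8 in place of Itga5 without WT DHA mouse 4. For DHA in Tg2576 mice it was 0 and rose to 3 (Itga7, Itga9 and Pxn) only without Tg2576 vehicle mouse 2, and for the interaction it was 0, and 0 to 1 without single mice (Lamc1 without Tg2576 DHA mouse 1, Itga9 without Tg2576 vehicle mouse 2). For the average over treatments it was 2, rose to 4 in DESeq2 (Itgb1, Itgb2, Lamb1 and Tln2), and was 1 to 3 without single mice. Under a replicate block the counts were 0, 2, 1, 0, 0 and 3 in the order of the vehicle and DHA genotype comparisons, DHA in WT, DHA in Tg2576, the interaction and the average, the third gene being Tln2. Under vehicle, Tln2 passed without Tg2576 vehicle mouse 1 or Tg2576 DHA mouse 1, Itga10 without Tg2576 vehicle mouse 1, Lamc1 without Tg2576 DHA mouse 1, and Itga11 and Itgad without Tg2576 vehicle mouse 2. The log2 difference of App lay between 0.51 and 0.59 in every setting. The 18 log2 differences of single genes that were recomputed in the other settings kept their sign in all of them, and the other printed differences were not recomputed. The cause of these changes was not tested.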
